A study of Mus musculus with 41 samples.

Results

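Matrix metalloproteinases and their tissue inhibitors were followed as 10 genes chosen by symbol, 7 metalloproteinases (Mmp2, Mmp3, Mmp9, Mmp10, Mmp11, Mmp13 and Mmp14) and 3 inhibitors (Timp1, Timp2 and Timp3), out of 47480 gene symbols measured and out of 23 Mmp and 4 Timp symbols. RNA came from 41 mouse mammary tumors, 1 library per tumor, 28 of them Plk2-/-; p53-/- and 13 p53-/-, all in the Balb/c background and all grown without treatment in the mammary fat pad of syngeneic hosts. For the Plk2-/-; p53-/- tumors, mammary epithelial cells of mice lacking both genes were transplanted into syngeneic wild-type mice whose mammary fat pads had been cleared, and tumors then arose after a long latency. The p53-/- tumors, which keep Plk2, belong to an established bank of transplantable tumors, and loss of p53 is shared by both groups. Cells of the wild-type hosts carry both genes, but which cells of a tumor came from its host was not measured. The series is described as serially transplanted, and the labels do not say which tumors descend from a common outgrowth, so p-values measure the spread between these samples and are too small if some share an origin.

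Matrix metalloproteinases are zinc-dependent proteases that are made as inactive precursors and cut collagens, laminins, proteoglycans and other proteins around cells. Tissue inhibitors of metalloproteinases (TIMPs) bind the active enzymes and block them. In mammary tissue this balance is known for its part in branching, involution and tumor invasion, and much of the protease is made by fibroblasts and immune cells of the stroma. The stromelysins Mmp3 and Mmp10 and the collagenase Mmp13 lie in a cluster of Mmp genes next to Birc2, Birc3 and Yap1. Birc2 and Birc3 encode inhibitors of apoptosis, and Yap1 encodes the transcriptional coactivator of the Hippo pathway.

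The values were upper-quartile normalized gene-level estimates, in which 1000 is the upper quartile of the nonzero values of a tumor. The implied depth was 31910250 to 53244728 fragments in the Plk2-/-; p53-/- tumors and 29409609 to 70868124 in the p53-/- tumors. A value worth 3 reads, the floor of detection (counting error only), lay between 1.16 and 2.45. Differences are in log2(value + 1), which understates changes of low genes, and "rose", "fell" or "called" means an adjusted p below 0.05 in limma, with Benjamini-Hochberg adjustment over all genes tested. Plk2 itself ran from 36.6 to 553 where it was deleted and from 186 to 8028 in the p53-/- tumors, and the library labelled p53null-7435, at 186, was the p53-/- tumor inside the range of the other genotype. The titles of the p53-/- libraries alone carry a numbered series name, so genotype and library batch cannot be told apart.

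The 3 members on chromosome 9 are shown first by the 250 bases before their transcription starts, because their RNA moved together across tumors. The sequences are from RefSeq on GRCm38.p6, the mm10 build, and all 3 lie on the plus strand, 5′ to 3′. Capitals mark matches to TGAGTCA or its reverse complement TGACTCA, the AP-1 element bound by Fos and Jun proteins. Mmp3 is chr9:7445572-7445821, Mmp10 is chr9:7502092-7502341 and Mmp13 is chr9:7272264-7272513.
Mmp3: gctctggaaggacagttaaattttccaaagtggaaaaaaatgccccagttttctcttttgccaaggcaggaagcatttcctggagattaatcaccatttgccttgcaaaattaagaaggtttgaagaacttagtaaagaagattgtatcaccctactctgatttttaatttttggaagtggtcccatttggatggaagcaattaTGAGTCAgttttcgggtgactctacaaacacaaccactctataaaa
Mmp10: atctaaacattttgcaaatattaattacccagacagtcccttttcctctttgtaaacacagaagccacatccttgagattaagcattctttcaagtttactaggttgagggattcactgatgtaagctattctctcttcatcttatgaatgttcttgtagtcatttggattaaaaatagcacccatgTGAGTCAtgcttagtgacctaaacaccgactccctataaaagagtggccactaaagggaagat
Mmp13: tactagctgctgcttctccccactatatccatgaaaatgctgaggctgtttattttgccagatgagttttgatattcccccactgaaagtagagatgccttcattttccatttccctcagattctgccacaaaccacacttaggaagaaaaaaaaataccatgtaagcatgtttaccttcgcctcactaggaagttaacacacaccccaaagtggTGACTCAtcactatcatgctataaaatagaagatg

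Each of these 3 windows held the AP-1 element once, beginning 46 bases before the start of Mmp3, 63 before that of Mmp10 and 35 before that of Mmp13, where it reads in reverse. Among all 32851 RefSeq windows of this length 4.46% held it on either strand. A window was given for 8 of the 10 genes, and none of the 5 other windows (Mmp11, Mmp14, Timp1, Timp2 and Timp3) held these letters. Mmp2 and Mmp9 had no window, so whether they hold the element was not looked up. The Runx motif AACCACA, in 4.40% of all windows, was in that of Mmp13 alone among the 8. The Ets core AGGAAG, in 29.5% of all windows, was in those of Mmp3, Mmp13, Mmp14, Timp1 and Timp3. These matches describe letters in a window and do not show that a factor binds there.

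Among the levels per kilobase of annotated exon (normalized value divided by exon length), the inhibitors and the membrane protease led. The median over the 41 tumors was 1439 for Timp2, 1266 for Timp1, 1109 for Mmp14, 538 for Timp3, 537 for Mmp2, 454 for Mmp3, 325 for Mmp13, 138 for Mmp11, 94.7 for Mmp9 and 20.5 for Mmp10. Most neighbours in this order were not separated by their spread: Timp2 was above Timp1 in 22 of 41 tumors, Timp1 above Mmp14 in 23, Timp3 above Mmp2 in 22, Mmp2 above Mmp3 in 23, Mmp3 above Mmp13 in 23 and Mmp11 above Mmp9 in 26. Clearer steps lay between Mmp14 and Timp3, in that order in 32 of 41 tumors, between Mmp13 and Mmp11 (31 tumors), and between Mmp9 and Mmp10 (31 tumors). Mmp14 had the highest value per kilobase of the 7 proteases in 26 tumors, Mmp3 in 6, Mmp2 in 5, Mmp13 in 3 and Mmp9 in 1. Every gene was above the floor in all 41 tumors except Mmp10, which was at or under it in 3.

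By the GENCODE vM21 annotation on GRCm38, Mmp13 (chr9:7272514-7283331), Mmp3 (chr9:7445822-7455975) and Mmp10 (chr9:7502352-7510240) lie on the plus strand of chromosome 9. The other genes lie apart, Mmp2 at chr8:92827291-92853420, Mmp9 at chr2:164940780-164955850, Mmp11 at chr10:75923222-75936496, Mmp14 at chr14:54431612-54445364, Timp1 at chrX:20870166-20874735, Timp2 at chr11:118301069-118355740 and Timp3 at chr10:86300372-86349506. Values are sums over all annotated transcripts of a gene, so no exon or untranslated part was measured on its own.

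Some reads of these genes could be counted to a neighbour. Of the 50-base stretches of Mmp3 transcripts, 8.39% also occur in another gene's transcripts, nearly all in Mmp10, and 8.37% of those of Mmp10 occur in Mmp3, the closest paralog. Timp3 lies inside Syn3 on the opposite strand and shares 21.4% of its stretches, mainly with Syn3. Mmp11 shares 3.72% with Chchd10, and Timp1 lies inside Syn1 on the opposite strand. Whether counting used strand is not given in the sources used here. Syn3 was low beside Timp3, between 5.95 and 135 in the 41 tumors, and so was Syn1 beside Timp1, between 4.26 and 243.

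**Figure D1:**
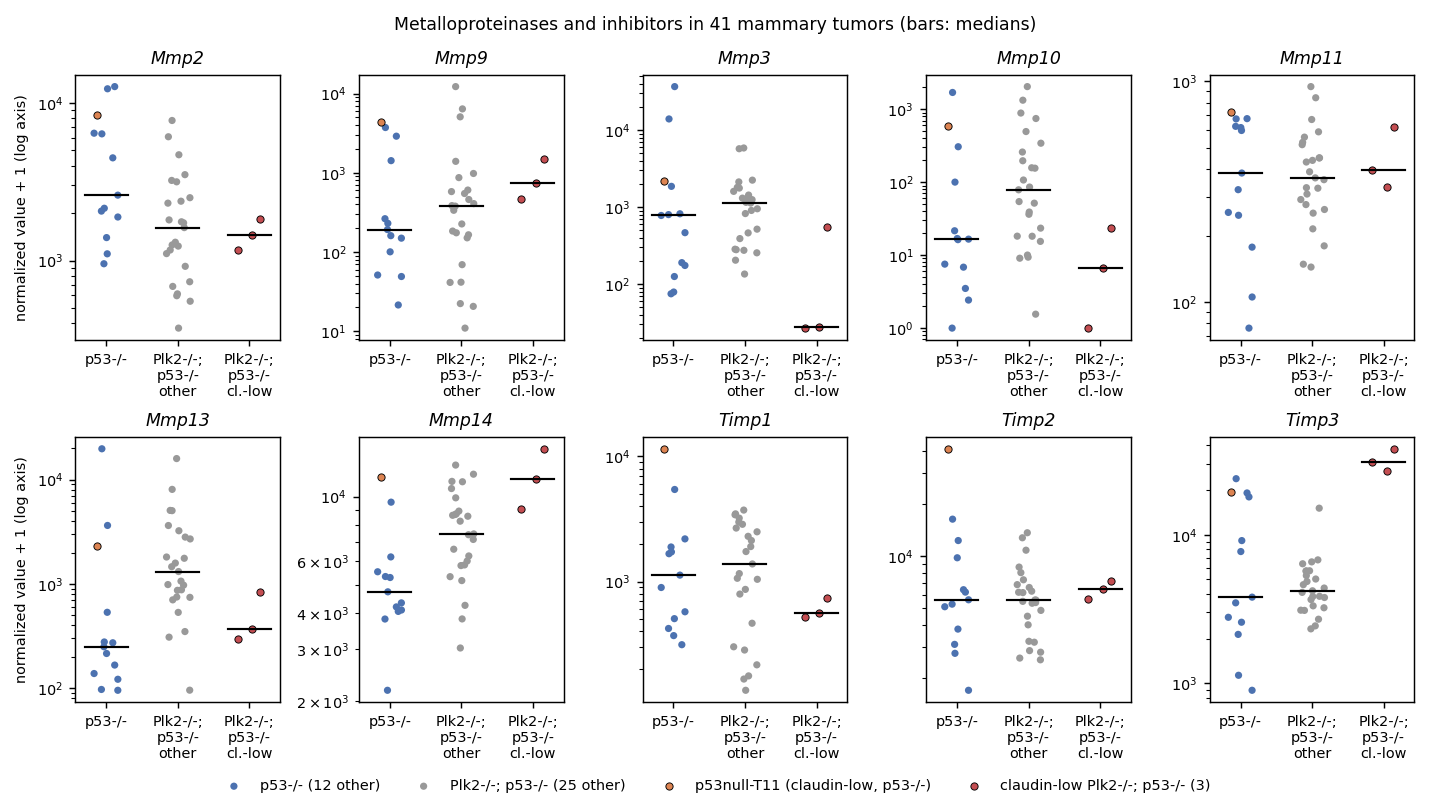
Normalized value + 1 (log axis) of each of the 10 genes in each tumor, with 13 p53-/- tumors on the left, 25 other Plk2-/-; p53-/- tumors in the middle and 3 claudin-low Plk2-/-; p53-/- tumors on the right (bars are medians, each point is 1 tumor, and the claudin-low p53-/- tumor T11 is orange). The 3 claudin-low tumors on the right stand above all others for Timp3, and 2 of them are the lowest for Mmp3.

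The first comparison asked how the 10 genes differed between the genotypes. Mmp2, the gelatinase A of fibroblasts, was lower in the Plk2-/-; p53-/- tumors, and Mmp13, the collagenase that cuts fibrillar collagen, and Mmp14, the membrane-type protease that activates pro-Mmp2, were higher. The other 7 genes were not called. Over all genes, 39.5% of 17208 were called, 24.3% as higher and 15.3% as lower, so 3 of 10 members called is not more than the share of all genes. That split depended on scaling: 4175 genes were higher and 2627 lower, against 3489 and 3258 after quantile normalization and 3032 and 3906 after rescaling by trimmed mean of M values (TMM). The median difference of the 10 was 0.09 on the log2 scale, beside 0.10 over all genes.

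Mmp2 ran from 371 to 7754 in the Plk2-/-; p53-/- tumors (median, 1538) and from 953 to 12728 in the p53-/- tumors (median, 2601). The ranges overlapped, with 7 Plk2-/-; p53-/- tumors below every p53-/- tumor and 3 p53-/- tumors above every Plk2-/-; p53-/- tumor. Its difference was -1.11 ± 0.38 (SE) on the log2 scale (limma, adjusted p = 0.0163), and 6 of 28 Plk2-/-; p53-/- tumors were above the p53-/- median. It stayed called under TMM and when any single tumor was left out. It was not called without p53null-5329 and p53null-10155 together (-0.86, adjusted p = 0.0757), which are 2 libraries chosen after their values were seen.

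Mmp13 ran from 94.9 to 15913 in the Plk2-/-; p53-/- tumors (median, 1024) and from 94.7 to 19749 in the p53-/- tumors (median, 249). The ranges coincided, yet 27 of 28 Plk2-/-; p53-/- tumors were above the p53-/- median, since most p53-/- tumors were low and p53null-5329 (19749), p53null-10155 (3636) and T11 (2293) were high. The difference was 1.60 ± 0.61 (SE) on the log2 scale (limma, adjusted p = 0.0338). The call was lost on leaving out any 1 of p53null-2224L, p53null-2396R, p53null-2225L, p53null-2331L, p53null-10152, p53null-10151 or p53null-7435, with adjusted p of at most 0.0695 and differences of 1.42 to 1.55. Without p53null-7435 it was 1.47 (adjusted p = 0.0597).

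Mmp14 ran from 3034 to 14578 in the Plk2-/-; p53-/- tumors (median, 8405) and from 2174 to 11656 in the p53-/- tumors (median, 4723). The groups overlapped, but 25 of 28 Plk2-/-; p53-/- tumors were above the p53-/- median. The difference was 0.61 ± 0.19 (SE) on the log2 scale (limma, adjusted p = 0.00908), and it stayed called when any single tumor was left out. Under TMM, which moved the median of all genes from 0.10 to -0.07, neither Mmp14 (0.44, adjusted p = 0.0787) nor Mmp13 (1.43, adjusted p = 0.0618) was called. With only the 7 Plk2-/-; p53-/- tumors whose numbers match those of primary tumors followed for latency, none of the 3 was called, with differences of -1.11 for Mmp2, 1.51 for Mmp13 and 0.68 for Mmp14.

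The remaining proteases were not called between genotypes. Mmp9, gelatinase B, made in quantity by neutrophils and macrophages, ranged from 9.94 to 12249 in the Plk2-/-; p53-/- tumors (median, 396) and from 20.4 to 4375 in the p53-/- tumors (median, 191). Mmp3, stromelysin 1, ranged from 25.8 to 5862 (median, 927) and from 73.7 to 36789 (median, 777), respectively. Mmp10, stromelysin 2, had medians of 51.9 and 15.6, and its difference of 1.23 had a 95% interval of -0.70 to 3.17, too wide to show a change of this size. Mmp11, stromelysin 3, a fibroblast gene that is secreted in active form, was the narrowest of the stromelysins, with medians of 376 and 383 and a difference of 0.13 (95% interval, -0.42 to 0.69).

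None of the 3 inhibitors was called. The difference was -0.25 (95% interval, -1.26 to 0.76) for Timp1, an inhibitor induced by cytokines, -0.20 (-0.77 to 0.38) for Timp2, which also takes part in pro-Mmp2 activation, and 0.05 (-0.78 to 0.88) for Timp3, the matrix-bound inhibitor. Without the claudin-low tumors these 3 differences were 0.11, 0.0038 and -0.10, so their sign was not fixed. The sum of the 7 proteases per kilobase, over the sum of the 3 inhibitors per kilobase, had a median of 0.867 (0.391 to 2.33) in the Plk2-/-; p53-/- tumors and 0.898 (0.302 to 2.67) in the p53-/- tumors.

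**Figure D2:**
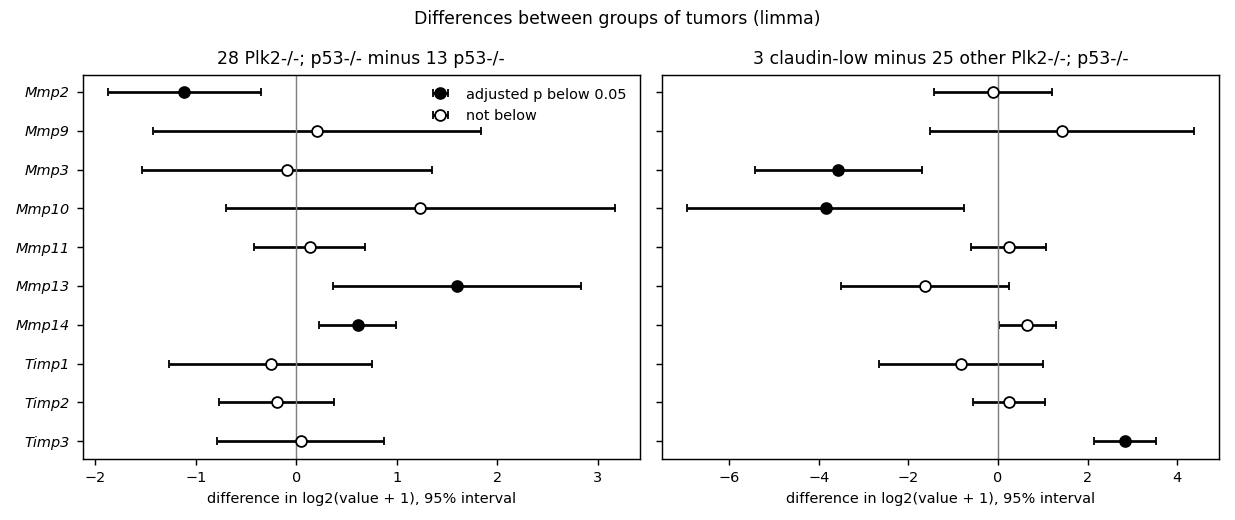
Differences in log2(value + 1) of the 10 genes with 95% intervals, for 28 Plk2-/-; p53-/- minus 13 p53-/- tumors (left) and 3 claudin-low minus 25 other Plk2-/-; p53-/- tumors (right). Filled points have a limma adjusted p below 0.05, which are Mmp2, Mmp13 and Mmp14 on the left and Mmp3, Mmp10 and Timp3 on the right.

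Around the members, the rest of the Mmp and Timp family held 12 tested genes, of which 3 rose (Mmp8, Mmp12 and Mmp27) and 1 fell (Mmp23) in the Plk2-/-; p53-/- tumors, with a list median of 0.04 beside 0.10 over all genes. Mmp8, the neutrophil collagenase, changed most (1.91, limma adjusted p = 0.00258), from a median of 10.4 to 52.5, and Mmp23 fell by 1.02 (adjusted p = 0.00980). Among the ADAM and ADAMTS proteases that TIMPs also inhibit, 9 of 12 rose and none fell, with a median of 0.89. Over all genes 24.3% rose and 15.3% fell, and the list was chosen with earlier results of these data known. Adamts1, a versican-cutting protease, changed most (1.94, limma adjusted p = 3.53e-05). Under quantile normalization 7 of the 12 rose, and under TMM 6. Of 17 genes of pericellular proteolysis only Plaur, the urokinase receptor, was called (1.30, adjusted p = 0.0124).

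Known regulators of these genes were read against the 39.5% called over all genes. Of 16 AP-1, Ets and Runx factors 3 rose (Fosb, Runx2 and Etv4), with Fosb, an AP-1 subunit, at 1.85 (limma adjusted p = 4.39e-05), and none fell. Of 9 inducing cytokines Il1a (1.18, adjusted p = 0.0316) and Osm rose, and neither was called under quantile normalization or TMM.

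Markers of other cells were checked beside these differences. Of 8 fibroblast markers none was called (median, -0.62), and their summed level ran from 21082 to 324962 in the Plk2-/-; p53-/- tumors and from 26777 to 272564 in the p53-/- tumors. Of 5 neutrophil markers Cxcr2 and Csf3r rose, and the summed level ran from 239 to 3015 and from 123 to 3081, respectively. Of 6 macrophage markers Cd68 rose (0.96, limma adjusted p = 0.0102), with sums of 3446 to 25164 and 5188 to 20677, and of 6 pericyte markers Abcc9 rose (1.27, adjusted p = 0.0260). Of 5 adipocyte markers Cidec fell by 2.28 (adjusted p = 0.0121), and no endothelial, T cell or B cell marker was called. Of 9 epithelial markers Krt5 and Krt14 fell. Of 5 skeletal muscle markers 4 fell, with high sums in p53null-2153L (39238) and p53null-7435 (26524). The part of these cells in the differences was not tested, and in bulk tissue fewer cells of a type and less RNA per cell cannot be told apart.

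The second comparison asked how the 3 tumors of claudin-low subtype that lack Plk2, named PLK2null-743, PLK2null-733 and PLK2null-732, differed from the other 25 of that genotype. Claudin-low tumors lack the tight-junction claudins and much of the epithelial program. Timp3 rose in them, and the stromelysins Mmp3 and Mmp10 fell, while the other 7 genes were not called. Over all genes, 37.3% of 17153 were called, 20.2% as higher and 17.1% as lower, so 3 of 10 is not more than the background. The study set the subtypes by clustering expression of libraries that include these, so p-values here may not be independent of the grouping.

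Epithelial markers were low in the claudin-low tumors lacking Plk2, but low epithelial markers alone do not set the label, which was not tested here. Epithelial markers summed to 411, 88.7 and 53.6 in PLK2null-732, PLK2null-733 and PLK2null-743, against 20203 to 123490 in the others, and 8 of 9 fell. Markers of other cells moved with the group as well: 6 of 6 endothelial, 6 of 6 pericyte, 6 of 6 T cell and 5 of 5 B cell markers rose, and 4 of 8 fibroblast markers fell. The endothelial sum was 165585 to 186496 against 2572 to 78025, the pericyte sum 88851 to 105609 against 3418 to 35501, and the fibroblast sum 21082 to 65255 against 31004 to 324962. The highest of the other tumors for endothelial and pericyte sums was PLK2null-7763. Fabp4 alone among 5 adipocyte markers rose, 1 of 6 macrophage markers (Mrc1) rose, and no neutrophil or skeletal muscle marker was called. The part of these cells in the differences below was not tested. Plk2 was at 54.4 in PLK2null-732, 36.6 in PLK2null-733, 128 in PLK2null-743 and 83.3 in PLK2null-7763. Whether the vessel RNA of these tumors came from host cells was not tested. T11, the claudin-low p53-/- tumor, had an endothelial sum of 6876 and a pericyte sum of 9052. Its fibroblast sum was 235459 and its epithelial sum 33797. The claudin-low name thus joined tumors of unlike marker levels, and whether it suits those with high vessel markers was not tested.

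Timp3 was at 26926 in PLK2null-732, 30626 in PLK2null-733 and 37850 in PLK2null-743. The other 25 tumors ran from 2327 to 15089 (median, 4197), and the highest of them was PLK2null-7763. The groups did not overlap. Timp3 was the only one of the 10 genes without overlap, and the share of all genes without overlap was not counted. The difference was 2.84 ± 0.34 (SE) on the log2 scale (limma, adjusted p = 1.18e-07), a 7.17-fold difference, and the exact permutation test over 3276 splits gave its smallest possible p, 0.000305. Leaving out any 1 of the 28 tumors gave 2.71 to 2.95, and every such fit kept the call. Timp3 was also the inhibitor with the highest value per kilobase in all 3 claudin-low tumors, and in 1 of the other 25.

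Mmp3 was at 26.5 in PLK2null-732, 25.8 in PLK2null-733 and 544 in PLK2null-743. In the other 25 tumors it ran from 134 to 5862 (median, 1128), so that 2 claudin-low tumors were below every other tumor and PLK2null-743 was inside their range. The difference was -3.56 ± 0.91 (SE) on the log2 scale (limma, adjusted p = 0.00258). Without PLK2null-732 it was -2.85 (adjusted p = 0.0518), and without PLK2null-733 it was -2.83 (adjusted p = 0.0532).

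Mmp10 was at 5.73 in PLK2null-732, 0 in PLK2null-733 and 22.3 in PLK2null-743, against 0.553 to 2040 in the other tumors (median, 77.6). PLK2null-733 was below every other tumor, PLK2null-7763 was the lowest of the others, and PLK2null-732 and PLK2null-743 were inside their range. The difference of -3.85 ± 1.51 (SE) on the log2 scale was just called (limma, adjusted p = 0.0458). With a pseudocount of 10 it was -2.57 (adjusted p = 0.0985), and without PLK2null-733 it was -2.63 (adjusted p = 0.305). The call was also lost without PLK2null-732 (adjusted p = 0.113) and without any 1 of PLK2null-1974, PLK2null-1975, PLK2null-1977, PLK2null-1980, PLK2null-1981, PLK2null-1984, PLK2null-1987, PLK2null-1988, PLK2null-1989, PLK2null-7749 or PLK2null-7750 (adjusted p, 0.0511 to 0.0535).

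Mmp13 was at 372 in PLK2null-732, 297 in PLK2null-733 and 837 in PLK2null-743, all below the median of 1314 in the other tumors but inside their range of 94.9 to 15913. Its difference of -1.63 had a 95% interval of -3.50 to 0.24 and was not called (limma, adjusted p = 0.166). Mmp14 was at 11499, 9085 and 14578, above the other median of 7454 in all 3 tumors, with the highest value of all 41 tumors in PLK2null-743. Its difference of 0.66 was not called by limma (adjusted p = 0.102), while the exact permutation test gave p = 0.0443 before any adjustment. Timp1 was at -0.83 (adjusted p = 0.498). For the gelatinases and Timp2 the 95% intervals spanned 0: -1.44 to 1.21 for Mmp2, -1.53 to 4.38 for Mmp9 and -0.57 to 1.04 for Timp2. The protease to inhibitor sum per kilobase was 0.391 to 0.582 in the 3 claudin-low tumors and 0.557 to 2.33 in the other 25.

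Other proteases and regulators were called in both directions in the claudin-low tumors. The counts of this and the next paragraph stand beside 20.2% of all genes called higher and 17.1% lower. No list was tested as a set. Of 12 further Mmp and Timp genes 3 rose and none fell, led by Mmp17, a membrane-anchored protease (3.34, limma adjusted p = 2.00e-06), with a list median of 0.78 beside 0.02 over all genes. Of 12 ADAM and ADAMTS proteases 6 rose and 1 fell (median, 0.60), with Adam19 at 3.87 (adjusted p = 9.87e-07) and Adam33 at -1.85 (adjusted p = 0.00328). Under either other scaling 4 of the 12 rose. Of 17 genes of pericellular proteolysis 4 rose and 6 fell (median, -1.04). Tfpi2, a serine protease inhibitor of the matrix, was at 3.43 and Lcn2, a lipocalin, at -8.82.

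Factors known to act on AP-1, Ets and Runx sites moved both ways, 3 of 16 higher and 5 lower (median, -0.43). Ets1, an Ets factor of endothelium and lymphocytes, was at 3.10 on the log2 scale (limma adjusted p = 1.92e-06), and Elf3, an epithelial Ets factor, fell from a median of 1810 to 0.599, which is under the floor. Runx2, which drives Mmp13 in bone, fell by 1.82 (adjusted p = 0.0170). Of 9 inducing cytokines 3 rose and 3 fell, with Tnf at 2.95 (adjusted p = 1.70e-05) and Inhba at -3.46 (adjusted p = 0.00229).

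T11 is the claudin-low tumor among the p53-/- tumors and has no replicate. It had Epcam at 81.4, the lowest of the 13 p53-/- tumors, while Krt8 was at 11057, and its endothelial sum of 6876 lay between the lowest (2041) and highest (16462) p53-/- sums. It was the highest of the 13 for Mmp9 (4375), Mmp11 (721), Mmp14 (11656), Timp1 (11520) and Timp2 (41222). It was next to the highest for Timp3 (19468) and Mmp10 (587) and ranked 3 of 13 for Mmp2 (8386), Mmp3 (2193) and Mmp13 (2293). Timp3 was thus high in T11, though not above p53null-5329 (23822), which is not one of the 4 tumors taken as claudin-low. Mmp3, Mmp10 and Mmp13 were in the upper part of the p53-/- range in T11 and below the median of the other Plk2-/-; p53-/- tumors in the 3 claudin-low ones.

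The difference between those 2 contrasts was fitted as a claudin-low by genotype interaction. T11 is its only claudin-low p53-/- tumor and is assumed to vary like the others, so the fit cannot tell genotype from that 1 tumor, which had the highest Timp2 and Timp1 of the 41. The claudin-low name also joins tumors of unlike vessel and fibroblast markers, and the fit cannot tell genotype from that contrast either. Over all genes 9.97% of 17208 were called, with a median of 0.19, which moved to -0.07 under quantile normalization and -0.01 under TMM. Of the calls 1125 were higher and 590 lower, against 820 and 660 under quantile normalization. Timp2 was the only member called, at -2.69 ± 0.89 (SE) on the log2 scale (limma, adjusted p = 0.0447). The interaction was -8.79 for Mmp10 (adjusted p = 0.0714), -4.36 for Timp1 (adjusted p = 0.0958), -5.32 for Mmp3 (adjusted p = 0.155) and -4.32 for Mmp13 (adjusted p = 0.209), none of them called. The Timp2 call was lost without any 1 of the claudin-low tumors lacking Plk2 (adjusted p, 0.0647 to 0.0892) and without any 1 of p53null-2331L, p53null-5317, p53null-7435, PLK2null-1977, PLK2null-1980, PLK2null-1989, PLK2null-7749 or PLK2null-7753 (adjusted p, 0.0501 to 0.0509). Mmp10 was called without p53null-5329 (adjusted p = 0.0351) or PLK2null-7763 (adjusted p = 0.0453).

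Across the 41 tumors the 3 chromosome 9 members rose and fell together. Mmp10 and Mmp13 had Pearson r = 0.84 and Spearman rho = 0.83, Mmp3 and Mmp10 r = 0.66 and rho = 0.70, and Mmp3 and Mmp13 r = 0.64 and rho = 0.67, each with an adjusted permutation p of 0.000108 for r, the smallest that 100000 resamples over 54 pairs gave. Within the p53-/- tumors these r were 0.90, 0.68 and 0.74, and within the Plk2-/-; p53-/- tumors 0.80, 0.67 and 0.66. Leaving out the 2 tumors farthest from the median of the second gene left r at 0.80, 0.59 and 0.55. Among 14802 other genes Mmp10 was the gene most correlated with Mmp13, and Mmp13 ranked 3 for Mmp10.

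Of the 45 pairs of the 10 genes, 42 had r above 0 and 23 passed the threshold by both r and rho after adjustment, all of them positive. The share of pairs of all genes that would pass was not counted. For Mmp9, Timp1 ranked 36 among 14802 other genes, and Timp2 (r = 0.38), also a passing pair, ranked 1391. Mmp9 went with Timp1 (r = 0.72, rho = 0.68) and with Mmp14 (r = 0.60, rho = 0.65), each with adjusted permutation p for r of 0.000108 and 0.000270. The 2 tumors farthest from the median of Timp1 did not carry the first relation (r = 0.70 without them), and r was 0.70 within the p53-/- tumors and 0.74 within the Plk2-/-; p53-/- tumors. Over the 41 tumors Timp3 had r of -0.06 with Mmp3, -0.12 with Mmp10 and -0.06 with Timp1, the 3 pairs below 0. These pooled values joined opposite signs. Within the p53-/- tumors the 3 r were 0.40, 0.41 and 0.11, and within the Plk2-/-; p53-/- tumors -0.52, -0.55 and -0.18. Whether they differ between genotypes was not tested. All these tumors share the normalization and, in part, the stromal content, and no correlation here says what drives it.

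**Figure D3:**
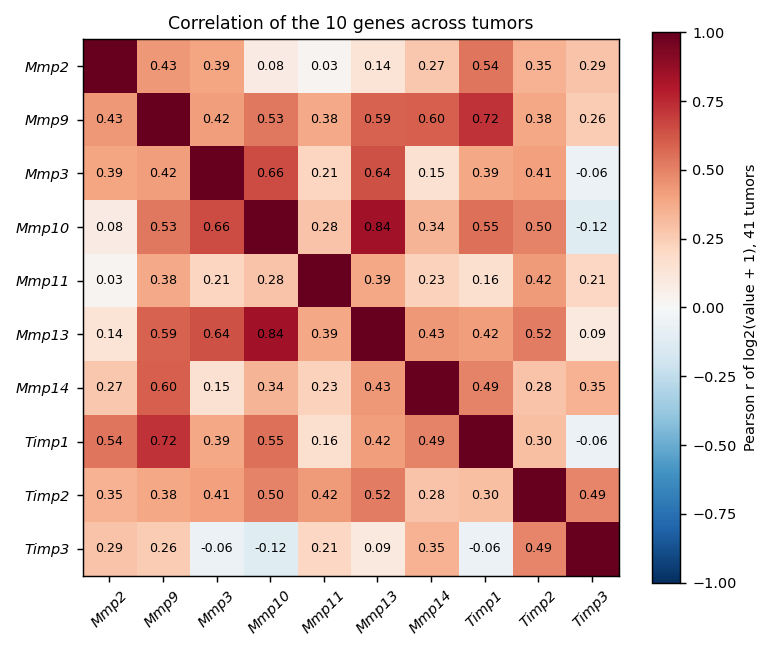
Pearson r of log2(value + 1) between each pair of the 10 genes over 41 tumors, with the value in each square and red for positive r. The block of Mmp3, Mmp10 and Mmp13 runs from 0.64 to 0.84, and Timp3 is near 0 or below with Mmp3, Mmp10 and Timp1.

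The genes whose pattern over the 41 tumors was most like each member were, by Pearson r, as follows. Mmp2 was most like Col1a2 (r = 0.78), Col3a1 (0.78), both collagen genes of fibroblasts, and Mfap4 (0.75), a microfibril gene. Mmp9 was most like Tnn (0.81), Mmp19 (0.81) and Fxyd5 (0.80). Mmp3 was most like Medag (0.70), Cpxm1 (0.69) and Cxcl5 (0.68), a neutrophil-attracting chemokine. Mmp10 was most like Grem1 (0.86), a BMP antagonist, and Dynap (0.84), and Mmp13, after Mmp10, was most like Tnn (0.79) and Col24a1 (0.78).

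The remaining members had other companions. Mmp11 had the weakest, Hrh1 (r = 0.64), E4f1 (0.59) and S100a7a (0.58). Mmp14 was most like Hhipl1 (0.77), Man2a1 (0.76) and Snx9 (0.76). Timp1 was most like Apbb1ip (0.83), Ncf4 (0.83) and Tmem119 (0.82). Timp2 was most like BC100451 (0.84), Acot9 (0.75) and Rtn4 (0.73), and Timp3 was most like Igfbp3 (0.83), Vash1 (0.82), an angiogenesis inhibitor of endothelium, and Sez6l2 (0.81). These are the highest of 14802 values each and carry no p.

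The chromosome 9 proteases were then set against Birc3. From Mmp13 to Yap1 the annotation (GENCODE vM21, GRCm38) places 13 protein-coding genes in 732.1 kb, chromosome 9 from 7272514 to 8004596, 9 of them Mmp genes, and 11 with a mean value of at least 10. The left ends of Mmp13 and Birc3 lie 576.2 kb apart. Birc3 ran from 348 to 7583 (median, 725) and broke at a gap between 2028 in PLK2null-7763 and 4099 in PLK2null-732. Above the gap were 4 tumors, the 3 claudin-low Plk2-/-; p53-/- tumors and p53null-5329, so correlations were taken within the 37 tumors below it.

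Those 4 tumors did not behave alike. In p53null-5329 Birc3 was at 7583, Birc2 at 7155, Yap1 at 33397 and Tmem123 at 34801, each the highest of the 41 tumors. Mmp13 (19749) and Mmp7 (1096) were also the highest there, and Mmp3 (13977) and Mmp10 (1695) were second. On the log2 scale, 10 of 11 genes of the interval were more than 1 above their median over the 41 tumors. In the claudin-low trio Birc3 was at 4099 (PLK2null-732), 4113 (PLK2null-733) and 5134 (PLK2null-743), and Birc2, Birc3, Yap1 and Tmem123 ranked next after p53null-5329. Dcun1d5, the gene on the other side of Mmp13 and outside the interval, was at 5022, 4588 and 5096 in them. It also ranked next after p53null-5329, while Dync2h1 beyond it ranked 16, 12 and 8.

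Of the 7 Mmp genes of the interval with a mean of at least 10, only Mmp27 was more than 1 above the median in each claudin-low tumor. Mmp27 was at 60.1, 46.7 and 80.8 there. The other tumors with high proteases did not have high neighbours: p53null-10155 had the highest Mmp3 (36789) and PLK2null-1973 the highest Mmp10 (2040), with 6 of the 7 Mmp genes more than 1 above the median in each and none of Birc2, Birc3, Yap1 and Tmem123 so. These 6 tumors were chosen after their values were seen. RNA values do not show the number of copies of the region, which was not analysed here.

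**Figure D4:**
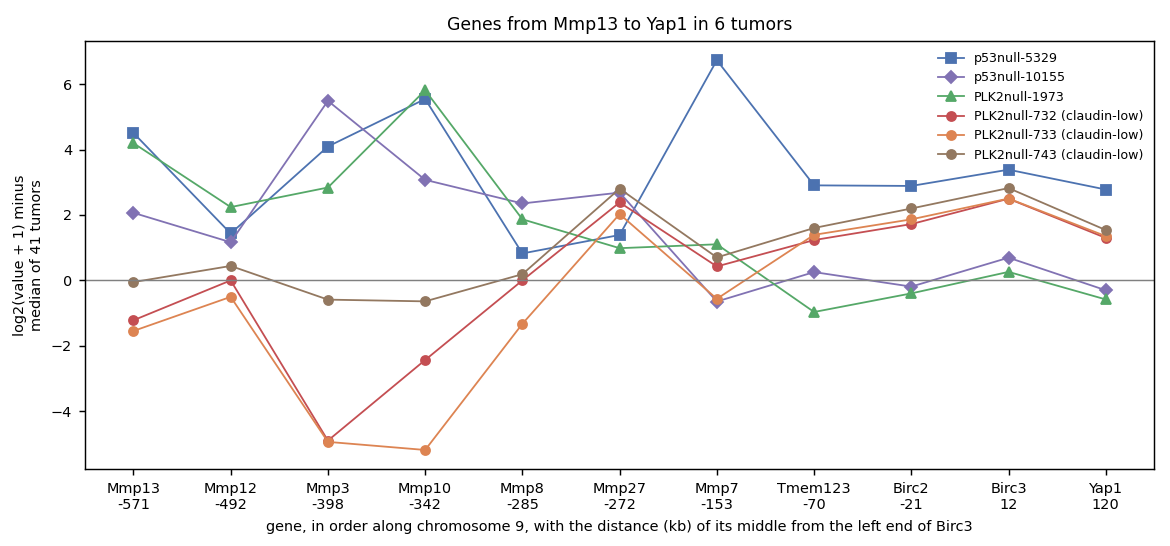
Log2(value + 1) minus the median of the 41 tumors for the 11 genes from Mmp13 to Yap1 with a mean of at least 10, in order along chromosome 9, in 6 tumors. p53null-5329 is above the median throughout, the 3 claudin-low tumors are above it for Tmem123, Birc2, Birc3 and Yap1 but below it for Mmp3 and Mmp10, and p53null-10155 and PLK2null-1973 are above it for Mmp3 and Mmp10 and within 1 of it for those 4 neighbours.

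Within the 37 tumors Mmp13 went with Birc3 (r = 0.43, rho = 0.49, adjusted permutation p = 0.0206 for r and 0.00793 for rho, over 54 pairs). Without the 2 tumors farthest from the Birc3 median r was 0.53. Within a genotype it was weaker, r = 0.20 in the 12 p53-/- tumors (permutation p = 0.546) and r = 0.32 in the 25 Plk2-/-; p53-/- tumors (permutation p = 0.113), so the relation passed the threshold in neither genotype alone. Whether those r differ from the pooled value was not tested. Mmp10 and Birc3 had r = 0.32 (adjusted permutation p = 0.0840) and rho = 0.45 (0.0139), and without PLK2null-7763, a tumor of high Birc3 and almost no Mmp10, r was 0.54 (permutation p = 0.00063). Mmp3 and Birc3 had r = 0.34 (adjusted permutation p = 0.0640) and rho = 0.32 (0.0864). Over all 41 tumors, which join both sides of the gap, r with Birc3 was 0.31 for Mmp13, 0.11 for Mmp10 and 0.035 for Mmp3.

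Mmp10 and Mmp13 went the other way with Yap1, although it lies beside Birc3, and Mmp3 did not pass the threshold. In the 37 tumors r with Yap1 was -0.75 for Mmp10 (rho = -0.75, adjusted permutation p = 0.000108 for r), -0.64 for Mmp13 (rho = -0.63, adjusted permutation p = 0.00018) and -0.31 for Mmp3 (adjusted permutation p = 0.0899). Within the p53-/- tumors r was -0.80 for Mmp10 and -0.75 for Mmp13, and within the Plk2-/-; p53-/- tumors -0.71 and -0.61. Without the 2 tumors farthest from the Yap1 median r was -0.71 and -0.65. Birc2 also went against Mmp10 (r = -0.54, adjusted permutation p = 0.00228).

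**Figure D5:**
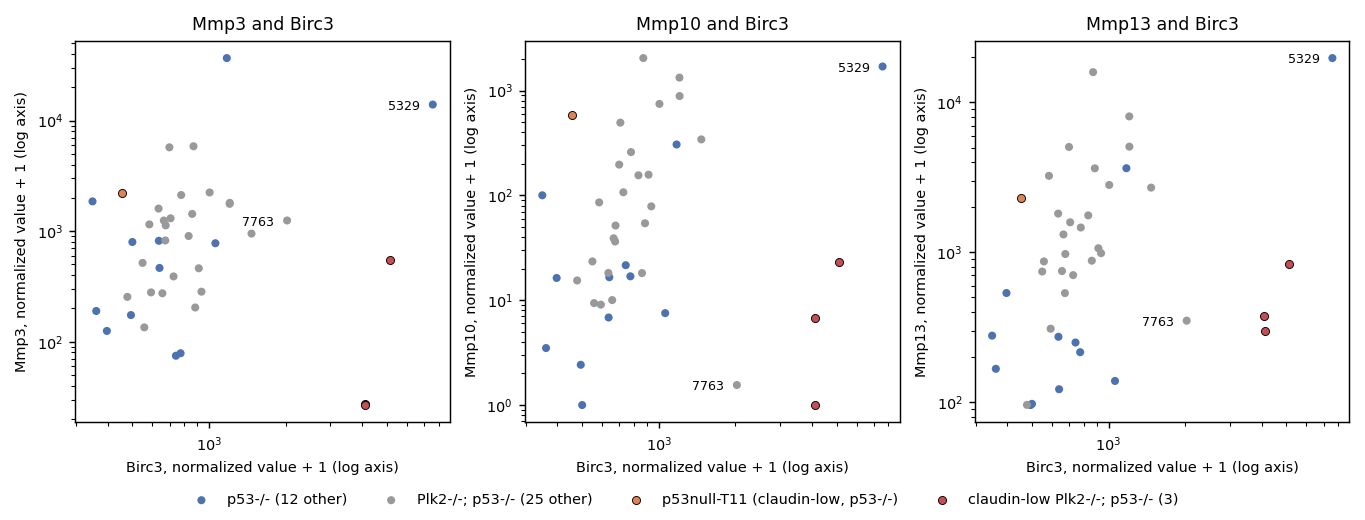
Mmp3, Mmp10 and Mmp13 against Birc3 (normalized value + 1, log axes) in 41 tumors, with p53null-5329 and PLK2null-7763 labelled. The 4 tumors right of the gap hold p53null-5329, first or second for each protease, and the 3 claudin-low Plk2-/-; p53-/- tumors, which lie below the median of the other 25 for each, with Mmp3 between 25.8 and 544.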

How the data were processed

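RNA of 41 tumors was sequenced as paired 50-base reads. Per the submitters' processing notes, the tools were STAR 2.7.6a, Salmon 1.4.0, Picard 2.22.4 and SAMtools on mm10. The authors deposited a gene-level signal, Salmon estimates scaled to an upper quartile of 1000, which is linear and holds no raw reads, and 51.5% of its values are 0. Implied depth, from the commonest low step, is 29409609 to 70868124 fragments, and 77.9 to 80.5% of nonzero values lie within 0.1 read of a whole number, too few to recover reads, so no count model was run.

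Differences were tested with limma 3.58.1 (R 4.3.3) on log2(value + 1), keeping genes whose mean over the fitted tumors reached 10, with Benjamini-Hochberg adjustment over all genes tested and a threshold of 0.05. The fits were tested on simulated data. Correlations used 100000 permutations (two-sided), adjusted over 54 pairs. Genotype and claudin-low differences of the members were also compared by two-sided permutation tests. Single tumors were flagged by Dixon's ratio, the gap to the nearest value over the range of the group, on log2(value + 1). The criterion was 0.829 for 4 tumors and 0.568 for 7. Genotypes came from the labels, and claudin-low subtypes from the study. Other genes named are the most correlated 3 per member or called genes of the lists, those of largest change first. The members and lists were chosen with earlier results of these data known. Alternatives were pseudocount 10, no filter or a mean of at least 50, an intensity trend, quantile normalization, TMM, subsets of tumors and leaving out each tumor. Other steps ran in Python 3.11.15 with scipy 1.17.1, pandas 2.3.3, numpy 2.4.6 and figures in matplotlib 3.10.9.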

Additional observations from a re-analysis of the deposited data

Results flagged for a closer look

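Among the 4 claudin-low tumors, T11 stood apart from the 3 Plk2-/-; p53-/- tumors for Timp1, at 11520 against a median of 563, and for Timp2, at 41222 against a median of 6493. Among the 7 primary Plk2-/-; p53-/- tumors, PLK2null-7747 was far below the others for Mmp14, at 3815 against 7136 to 11276. These are 3 of 20 groups of 4 or 7 tumors examined, and chance flags about 1 in 20. The claudin-low by genotype interaction of Timp2, -2.69 on the log2 scale (limma, adjusted p = 0.0447), rests on the same value of T11, the lone claudin-low p53-/- tumor, and cannot tell genotype from that tumor. Its call was lost in 11 of 40 fits that left out 1 tumor, without the filter on low values (adjusted p = 0.0552) and under quantile normalization (adjusted p = 0.0501).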

How the results depend on the processing

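No paired analysis was possible because the labels give the genotypes no shared replicate numbers. In the genotype comparison 3 members were called, 1 under TMM and 0 with the 7 primary tumors only. Under TMM Mmp11 was -0.038 and Timp3 -0.13, and with the 7 primary tumors Mmp9 was -0.040, Mmp11 -0.028 and Timp3 -0.0013. Without the claudin-low tumors Mmp3 was 0.43, Timp1 0.11, Timp2 0.0038 and Timp3 -0.10. Without p53null-7435 Mmp9 was -0.0019 and Timp3 -0.030, and without p53null-5329 and p53null-10155 (chosen after seeing the data) Mmp3 was 0.82 and Timp2 0.014. With all 41 tumors and genotype as a term, the claudin-low difference was 0.28 for Mmp2 and 0.29 for Timp1, both turned in sign, -2.20 for Mmp3 (adjusted p = 0.118), -1.59 for Mmp10 (adjusted p = 0.446) and 0.83 for Mmp14 (adjusted p = 0.0174). Mmp10 was also not called without the filter (adjusted p = 0.0631) or under quantile normalization (adjusted p = 0.0617). No member was called in the interaction without the filter (Timp2, adjusted p = 0.0552) or under quantile normalization (adjusted p = 0.0501). The cause was not tested.

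With Birc3, r of Mmp3 was 0.31 within the p53-/- tumors, 0.32 within the Plk2-/-; p53-/- tumors, 0.32 with the primary and p53-/- tumors only and 0.035 over all 41 tumors (chosen after seeing the data). For Mmp13 it was 0.20, 0.32 and 0.33 in the first 3 of these settings. For Mmp10 it rose to 0.36 with a pseudocount of 10, 0.52 without the 2 tumors farthest in Birc3 and 0.54 without PLK2null-7763 (chosen after seeing the data). Their causes were not tested.

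Leaving out 1 tumor at a time (most of these fits were chosen after seeing the data) gave 2 to 3 members called between genotypes, 1 to 3 in the claudin-low comparison and 0 to 2 in the interaction. Differences between genotypes near 0 turned sign: Mmp9 ran from -0.11 to 0.53, Mmp3 from -0.36 to 0.38, Mmp11 from -0.047 to 0.22, Timp1 from -0.42 to 0.018, Timp2 from -0.35 to 0.029 and Timp3 from -0.17 to 0.23. In the claudin-low comparison Mmp2 ran from -0.28 to 0.06 and Mmp11 from -0.020 to 0.43. The interaction could not be fitted without T11. Mmp10 is limited by depth, at or under 3 reads in 3 tumors.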
